A study of Rattus norvegicus with 24 samples.

Results

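Addition of lipopolysaccharide (LPS) to ammonia infusions was examined in the cerebellum of rats with a portocaval shunt, with 4 arrays of the PCA+NH3+LPS group set against 5 arrays of the PCA+NH3 group, out of 24 arrays in the series. Every gene whose probe set carried a single gene symbol entered the comparison, with the probe set of highest mean over all arrays used where a gene had several, which gave 18137 genes from 29016 probe sets. All rats were of the Sprague-Dawley strain. The PCA+NH3+LPS rats had carried a portocaval anastomosis (PCA), a surgical join of the portal vein to the vena cava that lets gut blood bypass the liver, for 6 months and had 10 infusions of ammonium acetate together with LPS. The PCA+NH3 rats had the same shunt and the same number of ammonium acetate infusions without LPS. Infusions were given every 2 weeks, with ammonia at 20 µl/min for 3 h and LPS at 5 mg/kg. PCA+LPS rats (5 arrays) and PCA rats without either infusion (5 arrays), both also shunted for 6 months, served to show the LPS difference without ammonia, and unshunted Sham rats (5 arrays) had surgery only. The sources used here give neither sex, age, nor the time between the last infusion and sampling, and do not say whether groups without an agent received vehicle. Nor do the labels say that samples of a group came from different animals, so p-values measure only the spread between these samples, which may be technical.

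LPS is a component of the outer membrane of Gram-negative bacteria and is sensed by the receptor complex of Tlr4, Ly96 and Cd14, which drives NF-kB and interferon signalling. In the brain it acts on microglia, perivascular macrophages and endothelium, and genes of early cytokines respond to a single dose quickly and often less after repeated doses. In liver disease, ammonia that is not cleared by the liver and systemic inflammation are both linked to hepatic encephalopathy, the brain disorder that this shunt model stands for.

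The cerebellar label fitted the marker genes. Pcp2, a Purkinje cell gene, lay at 10.5 to 10.7 on the log2 scale in PCA+NH3+LPS arrays and at 10.3 to 10.6 in PCA+NH3 arrays, and Calb2, a calcium-binding protein gene of granule cells, lay at 11.1 to 11.6 and at 10.7 to 11.3 in the same groups. Markers of other tissue were high in some arrays. The 14 measured choroid plexus and ependyma genes, centred on their own means over all arrays, averaged 2.69 in PCA+NH3+LPS array 3 and 1.24, 2.13 and 2.81 in PCA+NH3 arrays 1, 2 and 5, against -0.74 to -0.40 in the other 5 arrays. Ttr, the choroid plexus carrier of thyroid hormone, was at 6.0, 6.1, 12.5 and 5.9 in PCA+NH3+LPS arrays and at 12, 12.4, 7.4, 6.3 and 12.5 in PCA+NH3 arrays. Among these 9 arrays, genes of brainstem neurons were high in 2, both of PCA+NH3. Th, which makes catecholamine precursors, was at 8.8 and 7.8 in arrays 1 and 2 of that group. It was at 4.6 to 4.9 in PCA+NH3+LPS arrays and 4.4 to 4.7 in the other PCA+NH3 arrays. Some arrays of the other groups also held such markers. Th was at 7.7 in PCA array 3 and 8.8 in Sham array 1. Ttr was at 11 in PCA+LPS array 1 and 10.3 in PCA array 4. For some genes the difference is also given without the 4 arrays with choroid plexus markers in the 2 compared groups. They are C3, the class II genes and several genes whose value this moved. That fit leaves 3 PCA+NH3+LPS arrays against 2 PCA+NH3 arrays and keeps all PCA+LPS, PCA and Sham arrays. In bulk tissue, fewer cells of a type and less RNA per cell cannot be told apart.

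**Figure D1:**
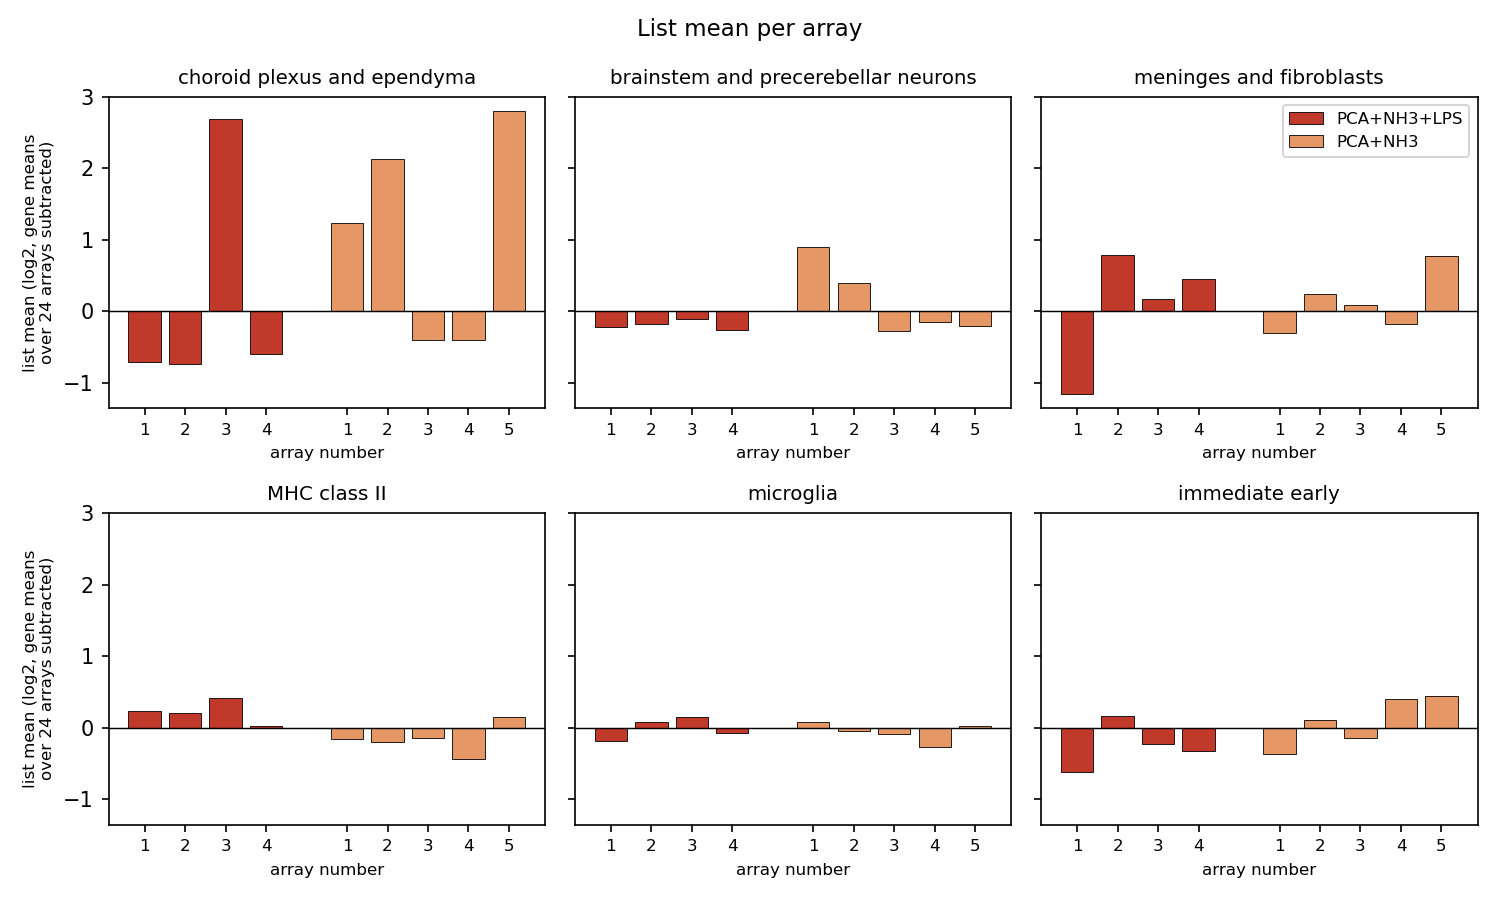
Mean level of 6 gene lists in each of the 9 arrays (vertical axes, log2, each gene centred on its mean over all 24 arrays; horizontal axes, arrays of PCA+NH3+LPS and then of PCA+NH3). The choroid plexus bars stand high in PCA+NH3+LPS array 3 and PCA+NH3 arrays 1, 2 and 5, the brainstem bars in PCA+NH3 arrays 1 and 2, and the MHC class II bars are above 0 in every PCA+NH3+LPS array and in PCA+NH3 array 5.

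Across all genes, LPS in ammonia-infused rats left few differences larger than the spread between arrays. With limma and Benjamini-Hochberg adjustment, 0 of 18137 genes passed an adjusted p of 0.05, and the smallest adjusted p was 0.217, shared by C3 and Lcn5. At an unadjusted p under 0.05 there were 525 genes (2.89%), of which 313 (1.73%) were higher and 212 (1.17%) lower in PCA+NH3+LPS than in PCA+NH3. If no gene differed, a share of about 0.05 would have such a p, and 2.89% is below that share. Genes described below for a low p are thus no excess over it. Every PCA+NH3+LPS array lay above every PCA+NH3 array for 50 genes (0.276%) and below for 29 genes (0.16%). Standard errors (SE) of the log2 differences had a median of 0.105, and 51.2% of all genes had a positive difference. The count of 0 did not hold in every fit. Estimated array weights called C3 (adjusted p = 0.0236) and Lcn5 (adjusted p = 0.0236), and the fit without PCA+NH3 array 1 called C3 (adjusted p = 0.0242) and Lcn5 (adjusted p = 0.0474), by limma.

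The immune genes of smallest p were led by C3, the central complement component that is cleaved to opsonins and anaphylatoxins, and included Cd74, the invariant chain that carries MHC class II molecules. C3 was at 9.2, 9.2, 9.4 and 8.9 in PCA+NH3+LPS arrays, against 8.5, 7.2, 7.5, 6.4 and 7.4 in PCA+NH3 arrays. All 4 arrays with LPS lay above all 5 without it. The log2 difference was 1.77 (SE 0.34, 95% interval 1.08 to 2.47, adjusted p = 0.217 by limma), a 3.42-fold higher level. In PCA+LPS arrays C3 was at 9.9, 9.4, 9.0, 9.0 and 9.7, against 7.8, 7.3, 8.6, 7.2 and 7.5 in PCA arrays, a difference of 1.72 (SE 0.32) over arrays that the ammonia comparison does not share. The LPS difference with ammonia exceeded the one without it by 0.06 (SE 0.46, 95% interval -0.91 to 1.02), an interval that still allows the LPS difference in C3 to be smaller or larger with ammonia by about 1 log2 unit. Without the 4 arrays with choroid plexus markers, C3 was higher by 2.15 (SE 0.43).

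Of 13 measured complement genes, 1 (C3) was higher at an unadjusted p under 0.05 and 0 were lower, 6 had a positive and 6 a negative difference, and the median was 0. In PCA+LPS against PCA, where 727 of all genes (4.01%) had an unadjusted p under 0.05, 363 of them higher (2% of all genes) and 364 lower (2.01%), 4 of the 13 complement genes were higher and the median was 0.36. C1qa and C1qb, which encode chains of the recognition molecule C1q of the classical pathway, differed by 0.07 (SE 0.23) and -0.08 (SE 0.16) with ammonia, against 0.52 and 0.40 without it. The protease gene C1s differed by 0.10 (SE 0.21) with ammonia and 0.52 without it. The test of the difference between these LPS effects gave an unadjusted p under 0.05 for 1 of the 13 genes, C1qb, and 0 at the adjusted threshold.

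MHC class II molecules present peptides to CD4 T cells, and in the brain are made mainly by activated microglia and by macrophages at its borders. Of the 10 measured class II genes, 4 were higher at an unadjusted p under 0.05 (background 1.73%) and 0 were lower, and the count was 4 in every fit that left out an array and without the 4 arrays with choroid plexus markers. They were Cd74, RT1-Da (the rat DR alpha chain), RT1-Ba (the rat DQ alpha chain) and RT1-Db1 (a DR beta chain). Class II promoters are known to carry a conserved pair of elements, the X box and the Y box, through which the coactivator Ciita acts. The 250 bases before the start of the 3 chain genes and of C3 are shown because the class II chain genes and C3 are described in most detail here (RefSeq, GRCr8, gene strand, 5′ to 3′). Capitals mark TGATTGG, the core of a Y box, and TAGCAAC, part of an X box, in the class II promoters, and in the C3 promoter TTGCNNAAT, a C/EBP type site. The letters were chosen after the sequences had been seen and were searched on both strands, with no overlap between them.

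RT1-Da, chr20:4515165-4515414, plus strand: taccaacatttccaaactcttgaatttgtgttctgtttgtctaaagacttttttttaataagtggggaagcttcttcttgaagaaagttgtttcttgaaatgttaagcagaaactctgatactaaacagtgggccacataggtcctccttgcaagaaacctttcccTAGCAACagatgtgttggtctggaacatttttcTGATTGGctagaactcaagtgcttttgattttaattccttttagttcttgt
RT1-Db1, chr20:4560163-4560412, minus strand: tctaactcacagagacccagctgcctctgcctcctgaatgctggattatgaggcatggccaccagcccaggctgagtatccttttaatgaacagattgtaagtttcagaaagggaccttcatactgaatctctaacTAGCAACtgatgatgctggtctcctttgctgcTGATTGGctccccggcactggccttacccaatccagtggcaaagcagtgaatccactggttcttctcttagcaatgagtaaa
RT1-Ba, chr20:4576807-4577056, plus strand: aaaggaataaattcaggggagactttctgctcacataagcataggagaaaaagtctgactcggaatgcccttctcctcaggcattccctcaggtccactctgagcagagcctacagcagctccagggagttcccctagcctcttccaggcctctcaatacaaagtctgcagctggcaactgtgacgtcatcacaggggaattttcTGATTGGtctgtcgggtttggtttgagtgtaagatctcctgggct
C3, chr9:2201340-2201589, minus strand: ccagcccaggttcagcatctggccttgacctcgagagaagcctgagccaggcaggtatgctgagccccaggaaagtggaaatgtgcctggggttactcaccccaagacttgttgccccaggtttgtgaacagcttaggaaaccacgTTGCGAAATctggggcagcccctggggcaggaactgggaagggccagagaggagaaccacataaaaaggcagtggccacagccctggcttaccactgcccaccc

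Counted from the gene start, TGATTGG lay at -51 to -45 in RT1-Da, at -82 to -76 in RT1-Db1 and at -45 to -39 in RT1-Ba. TAGCAAC lay at -84 to -78 in RT1-Da, at -114 to -108 in RT1-Db1 and at -72 to -66 before Cd74. Of the 9 class II list genes with a promoter in the RefSeq table, 7 held TGATTGG and 4 held TAGCAAC, against 6.42% and 2.88% of 33469 rat promoters. The 7 with TGATTGG included RT1-DMa, RT1-DOa and RT1-DOb, whose differences were -0.14, -0.09 and 0.03, so holding TGATTGG did not separate the class II genes that were higher from those that were not. The 4 with TAGCAAC were Cd74, RT1-Da, RT1-Db1 and RT1-DOb. RT1-DOb was not among the higher genes, and RT1-Ba was among them without holding TAGCAAC. The C3 site lay at -104 to -96, and 2.26% of promoters held such a site. A match of letters is a description of the window and no evidence of binding.

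Cd74 was at 9.9, 9.7, 10.4 and 9.3 in PCA+NH3+LPS arrays, against 8.6, 8.2, 8.2, 7.7 and 9.4 in PCA+NH3 arrays. The groups overlapped through PCA+NH3+LPS array 4 and PCA+NH3 array 5 alone. The difference was 1.41 (SE 0.34, 95% interval 0.69 to 2.12, adjusted p = 0.997 by limma), or 2.65-fold. RT1-Da was at 6.6, 6.3, 6.7 and 5.5 in PCA+NH3+LPS arrays, against 5.1, 5.3, 5.2, 4.7 and 5.9 in PCA+NH3 arrays, a difference of 1.03 (SE 0.28). RT1-Ba was at 6.0, 5.8, 6.6 and 5.6 in PCA+NH3+LPS arrays, against 5.1, 4.9, 5.0, 4.6 and 5.9 in PCA+NH3 arrays, a difference of 0.90 (SE 0.26). In both chain genes PCA+NH3+LPS array 4 was again the lowest of its group and PCA+NH3 array 5 the highest of its group, and array 5 lay above arrays 2 and 4 of PCA+NH3+LPS for RT1-Ba. RT1-Db1, the smallest of the 4, was at 5.1, 4.7, 5.3 and 5.0 in PCA+NH3+LPS arrays, against 4.6, 4.4, 4.6, 4.5 and 4.8 in PCA+NH3 arrays, a difference of 0.45 (SE 0.13).

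The class II arrays that were highest in their groups, PCA+NH3+LPS array 3 and PCA+NH3 array 5, were also the arrays with the highest choroid plexus means, 2.69 and 2.81. Without the 4 arrays with choroid plexus markers the differences were 1.68 (SE 0.43) for Cd74, 1.18 (SE 0.37) for RT1-Da, 1.00 (SE 0.30) for RT1-Ba and 0.38 for RT1-Db1, so 3 of the 4 were larger and RT1-Db1 smaller than with all arrays. PCA+NH3 array 4 was the lowest of its group in C3, Cd74, RT1-Da and RT1-Ba, and also the lowest in the mean of the microglia list, at -0.28; its part in the results was not tested beyond leaving it out. The other 6 class II genes, among them the peptide-exchange chains RT1-DMa and RT1-DMb, the protease Ctss and the coactivator Ciita, lay between -0.14 and 0.12. Averaged over the list, the 10 genes stood at 0.22 ± 0.16 in PCA+NH3+LPS arrays (SD, n = 4) and at -0.16 ± 0.21 in PCA+NH3 arrays (SD, n = 5), with a median difference of 0.08.

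Set beside the LPS difference without ammonia, the class II differences were larger in value, but the test of the difference between the LPS effects did not pass. Cd74 differed by 0.68 (SE 0.32) in PCA+LPS against PCA, RT1-Da by 0.62, RT1-Ba by 0.66 and RT1-Db1 by 0.22. The LPS difference in Cd74 with ammonia minus that without it was 0.72 (SE 0.47), with a lower 95% bound of -0.25, and was 0.41 for RT1-Da and 0.24 for RT1-Ba. The adjusted p of that difference was 0.997 for each by limma. Cd74 was at 10.0, 8.7, 8.8, 9.6 and 10.0 in PCA+LPS arrays, 3 of them within the range of the PCA+NH3+LPS arrays, while PCA arrays were at 8.6, 8.2, 9.6, 8.3 and 9.0. PCA array 3, which carried brainstem markers, was the highest PCA array for Cd74, RT1-Da (5.9) and C3 (8.6). Its class II list mean was 0.25, against -0.20 to -0.02 in the other PCA arrays. The part of this array in the differences without ammonia was not tested for these genes.

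**Figure D2:**
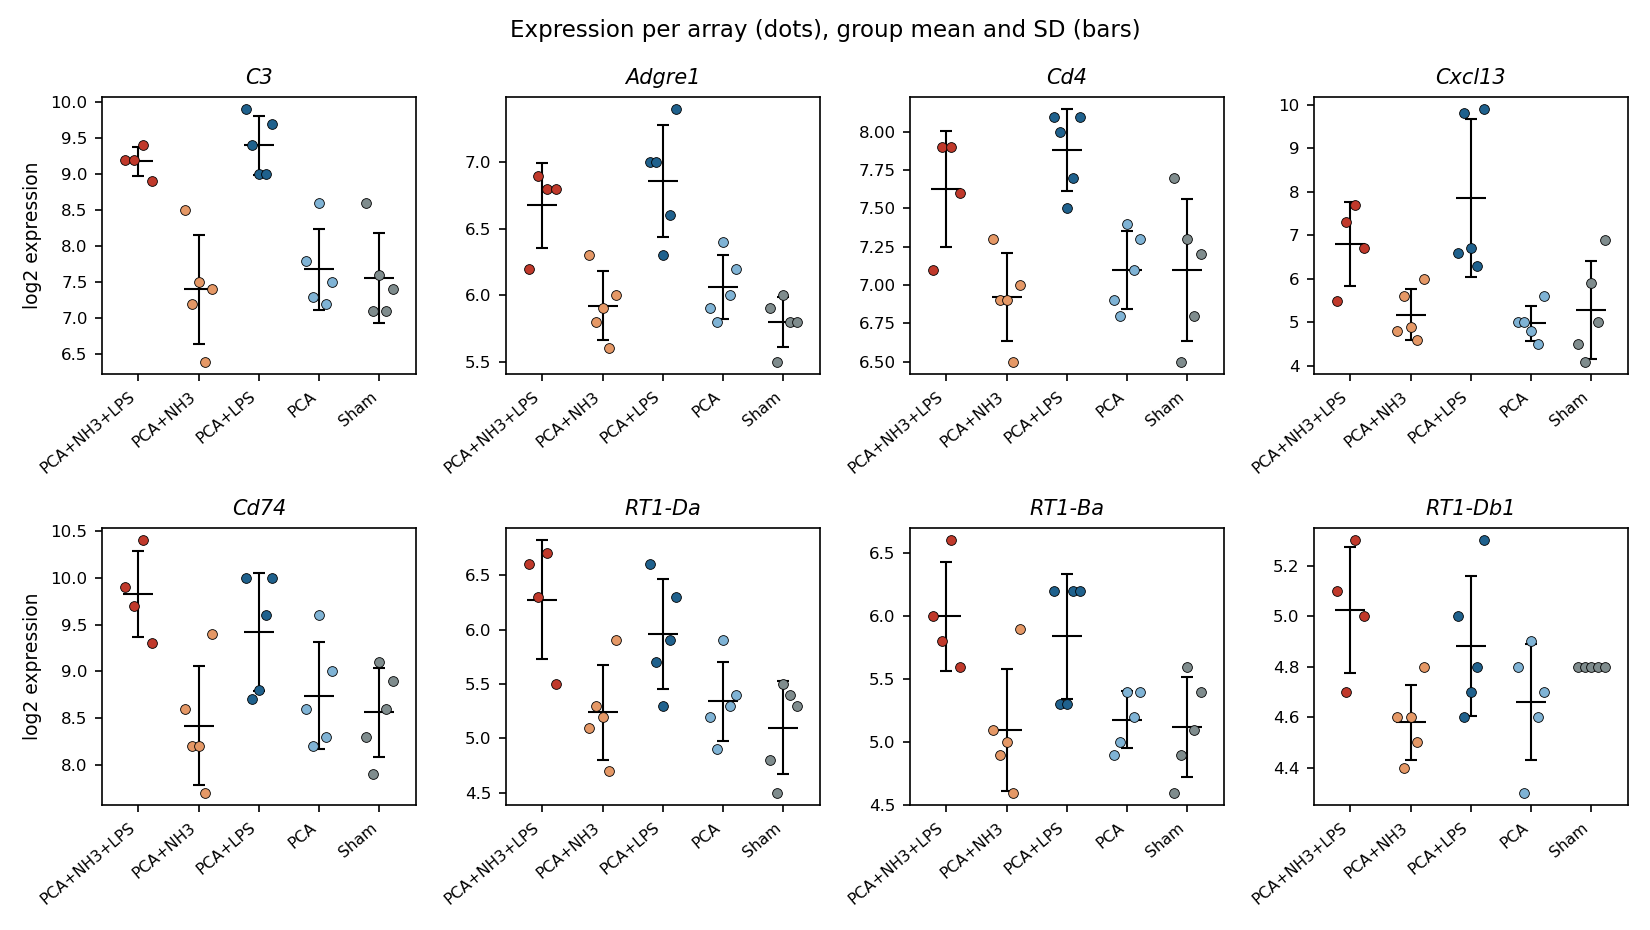
Log2 expression of C3, Adgre1, Cd4, Cxcl13, Cd74, RT1-Da, RT1-Ba and RT1-Db1 (vertical axes) in each array of the 5 groups (horizontal axes), with points for arrays and bars for mean ± SD. C3 separates fully in both LPS comparisons, Cd74 overlaps through PCA+NH3 array 5 at 9.4, and Cxcl13 reaches 9.8 and 9.9 only in PCA+LPS arrays.

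Surface genes of myeloid and lymphoid cells also had low p. Adgre1, an adhesion receptor that marks macrophages, was at 6.2, 6.9, 6.8 and 6.8 in PCA+NH3+LPS arrays, against 6.3, 5.8, 5.9, 5.6 and 6.0 in PCA+NH3 arrays. Array 1 of the LPS group alone fell within the range of the other group. The difference was 0.76 (SE 0.18, adjusted p = 0.997 by limma), 0.88 (SE 0.25) without the 4 arrays with choroid plexus markers, and 0.80 in PCA+LPS against PCA, with a difference between these effects of -0.04 (95% interval -0.57 to 0.48). Cd4, a T helper cell coreceptor that in the rat is also made by macrophages and microglia, was at 7.1, 7.9, 7.9 and 7.6 in PCA+NH3+LPS arrays, against 7.3, 6.9, 6.9, 6.5 and 7.0 in PCA+NH3 arrays. Array 1 of the LPS group again lay within the range of the other group. Its difference was 0.70 (SE 0.21), and 0.78 in PCA+LPS against PCA, where the groups did not overlap. A second, dimmer Cd4 probe set differed by 0.17 (SE 0.11). Cxcr6, a chemokine receptor of T cells and natural killer cells, was at 4.3, 4.2, 4.2 and 4.4 in PCA+NH3+LPS arrays, against 3.8, 3.8, 4.0, 4.0 and 3.9 in PCA+NH3 arrays. Its groups did not overlap, its difference was 0.38 (SE 0.11), and PCA+LPS against PCA differed by 0.06. Cxcr6 was low in level, and Sham arrays lay at 3.8 to 4.3. Its difference was 0.30 (SE 0.15) without the 4 arrays with choroid plexus markers.

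In the wider marker lists few other genes had a low p. Of 10 perivascular macrophage genes, Adgre1 alone had an unadjusted p under 0.05, and the median was 0.05: the scavenger receptor Cd163 differed by 0.01 (SE 0.15), the mannose receptor Mrc1 by -0.10 (SE 0.25) and Folr2 by 0.38 (SE 0.22). Of 20 microglia genes, 0 had an unadjusted p under 0.05 in either direction, 14 were positive and the median was 0.05. Among them Aif1, the calcium-binding microglial marker Iba1, differed by 0.01 (SE 0.16), and Itgam, a subunit of complement receptor 3, by 0.35 (SE 0.24), or 0.65 (SE 0.33) without the 4 arrays with choroid plexus markers. Of 15 lymphocyte genes, Cd4 alone passed an unadjusted p of 0.05, while Cd3e, part of the T cell receptor complex, was at 3.8 to 4.1 in PCA+NH3+LPS arrays and at 3.6 to 3.9 in PCA+NH3 arrays, a difference of 0.14 (SE 0.08). For 11 neutrophil and monocyte genes the counts were 0 higher and 0 lower, with a median of -0.01. Levels were low in both lists: a mean level of at least 5 was reached by 3 of the 15 lymphocyte genes and 2 of the 11 neutrophil and monocyte genes. In PCA+LPS against PCA, 6 of these 11 were higher (2% of all genes were) and the median was 0.30. Arrays 2 and 5 of PCA+LPS carried this list, with means of 1.14 and 0.77 against -0.18 to 0.04 in the other 3 PCA+LPS arrays and -0.20 to 0.00 in PCA arrays. Mmp8, a neutrophil collagenase, differed by -0.06 (SE 0.31) with ammonia and 0.92 without it, and S100a9, a calprotectin subunit, by -0.12 (SE 0.35) and 0.80. In PCA+LPS arrays Mmp8 was at 3.2, 5.7, 3.7, 3.8 and 5.2, against 3.5, 3.4, 3.6, 3.4 and 3.1 in PCA arrays, so the same arrays 2 and 5 were the highest. The test of the difference between the LPS effects had an unadjusted p under 0.05 for Mmp8 alone of the 11, and 0 of 11 passed after adjustment.

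Of the sensing and early cytokine genes of the LPS response, Tlr4, Cd14, Tnf, Il1b and Il6 had differences near 0. Tlr4, the LPS receptor, differed by 0.04 (SE 0.15), and its coreceptor Cd14 by -0.07 (SE 0.12). Of the 12 genes for recognition, Acod1, the itaconate-making enzyme of activated macrophages, alone had an unadjusted p under 0.05, at 4.5, 4.6, 4.4 and 4.7 in PCA+NH3+LPS arrays against 4.1, 4.3, 4.4, 4.5 and 4.4 in PCA+NH3 arrays, a difference of 0.21. Tnf differed by -0.05 (SE 0.14), Il1b by 0.05 (SE 0.11) and Il6 by 0.04 (SE 0.14). The signs of Tlr4, Il1b and Il6 turned when single arrays were left out. Nos2, the inducible nitric oxide synthase, lay at 4.7, 4.8, 4.7 and 4.9 in PCA+NH3+LPS arrays, against 4.9, 4.9, 5.0, 5.3 and 5.2 in PCA+NH3 arrays, a difference of -0.28 (SE 0.14). Sele, an endothelial adhesion molecule induced by NF-kB, was the 1 gene of 19 cytokine and NF-kB targets with an unadjusted p under 0.05, higher by 0.26 (SE 0.09). Of the 19, 13 were positive and the median was 0.09. Among the 8 with a mean level of at least 5, 7 were positive and the median was 0.11. The rest of the list had lower levels, with Il6 at 3.1 to 3.4 in PCA+NH3+LPS arrays.

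Among 14 chemokines 1 stood out. Cxcl13, which attracts B cells, was at 5.5, 7.3, 7.7 and 6.7 in PCA+NH3+LPS arrays, against 4.8, 5.6, 4.9, 4.6 and 6.0 in PCA+NH3 arrays. PCA+NH3+LPS array 1, the lowest of its group, lay below PCA+NH3 arrays 2 and 5. The difference was 1.62 (SE 0.67, adjusted p = 0.997 by limma), or 3.07-fold. In PCA+LPS arrays Cxcl13 was at 6.6, 9.8, 6.7, 6.3 and 9.9, all above the PCA arrays at 5.0, 5.0, 4.8, 4.5 and 5.6, a difference of 2.88 (SE 0.63). The LPS effect with ammonia minus that without it was -1.26 (SE 0.92), which is within the error. Ccl2, which recruits monocytes, differed by 0.08 (SE 0.55) and by -0.87 without the 4 arrays with choroid plexus markers.

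Acute phase genes, which are induced by interleukin 6 and related signals, had 0 of 13 measured members at an unadjusted p under 0.05 in either direction, 9 were negative and the median was -0.04, against a median of 0.20 in PCA+LPS over PCA. Lcn2, an iron-scavenging secreted protein, differed by -0.20 (SE 0.53) with ammonia and by 1.02 (SE 0.50) without it. Its PCA+LPS values were 6.6, 9.5, 5.7, 6.1 and 8.7, so that arrays 2 and 5 of that group carried its level, as they did for Cxcl13, while the PCA+NH3+LPS arrays lay at 5.8, 5.8, 6.4 and 6.0. Lrg1, a leucine-rich acute phase glycoprotein, differed by -0.23 (SE 0.27) with ammonia and 0.62 without it, a difference between effects of -0.85 (SE 0.37, adjusted p = 0.997 by limma).

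Interferon response genes were mostly lower in value. Of 21 genes, 17 were negative (46.7% of all genes were), 3 were lower at an unadjusted p under 0.05 (background 1.17%) and 0 higher, with a median of -0.14. Mx2, an antiviral GTPase, was at 4.8, 5.5, 5.1 and 4.8 in PCA+NH3+LPS arrays, against 5.7, 5.6, 5.2, 5.3 and 5.4 in PCA+NH3 arrays. Its difference was -0.39 (SE 0.15), and it was also lower by 0.38 in PCA+LPS than in PCA, where the groups did not overlap. Usp18, which removes ISG15 from proteins, differed by -0.56 (SE 0.24), and Oas1a, which makes the activator of RNase L, by -0.34 (SE 0.16). These differences were -0.22 for Mx2, -0.17 for Usp18 and -0.18 for Oas1a without the 4 arrays with choroid plexus markers. Irf1, the list member of next smallest p over all arrays, was higher by 0.215 (SE 0.12). The guanylate-binding protein Gbp1, outside this list and low in level, lay at 2.7, 2.7, 2.8 and 2.7 in PCA+NH3+LPS arrays. In PCA+NH3 arrays Gbp1 lay at 2.8, 3.0, 3.1, 3.1 and 3.2. The interferon list averaged 0.29 and 0.24 in PCA+NH3 arrays 1 and 2, the arrays with brainstem markers, and between -0.16 and 0.18 in the other 7. Leaving out single arrays gave 1 to 4 lower genes, with 1 without PCA+NH3 array 1 or 2 or without PCA+NH3+LPS array 3 or 4. Without the 4 arrays with choroid plexus markers 0 were lower and 2 higher, and the median was -0.03. The 12 measured MHC class I and antigen processing genes had 0 at an unadjusted p under 0.05, 10 of them negative, with a median of -0.05.

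**Figure D3:**
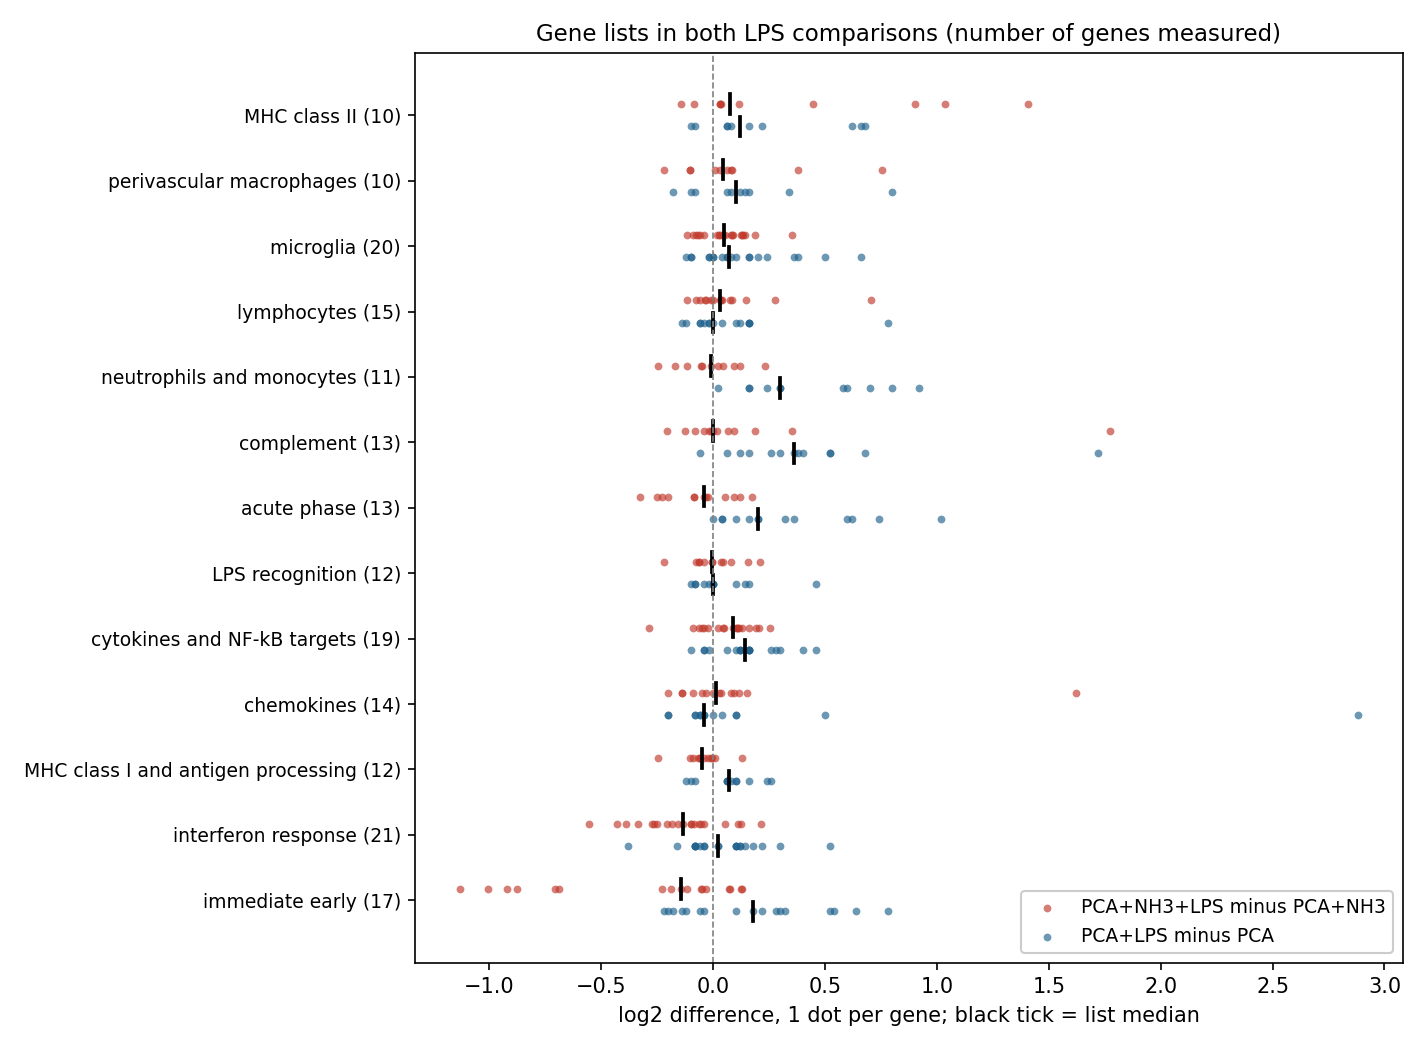
Log2 differences of the members of 13 gene lists (dots, horizontal axis) with each list's median (tick), for PCA+NH3+LPS minus PCA+NH3 and for PCA+LPS minus PCA. The neutrophil and acute phase medians lie at -0.01 and -0.04 with ammonia and at 0.30 and 0.20 without it.

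Immediate early genes, which neurons and other cells switch on within minutes of stimulation, were lower in PCA+NH3+LPS than in PCA+NH3 in value. Of 17 measured genes, 13 were negative (46.7% of all genes were), 3 were lower at an unadjusted p under 0.05 (background 1.17%) and 0 higher, and the median was -0.14. Fos, a subunit of the transcription factor AP-1, was at 5.2, 7.1, 6.1 and 5.4 in PCA+NH3+LPS arrays, against 6.0, 7.5, 6.2, 7.7 and 8.0 in PCA+NH3 arrays. Dusp1, a phosphatase of MAP kinases, was at 8.2, 9.4, 8.8 and 8.5 in PCA+NH3+LPS arrays, against 8.5, 9.7, 9.3, 10.3 and 10.2 in PCA+NH3 arrays. Nr4a1, an orphan nuclear receptor, was at 6.1, 7.4, 6.9 and 6.4 in PCA+NH3+LPS arrays, against 6.4, 8.1, 6.8, 8.2 and 8.6 in PCA+NH3 arrays. In all 3 genes the groups overlapped, PCA+NH3+LPS array 1 was the lowest of the 9, and PCA+NH3 arrays 2, 4 and 5 were the highest. The differences were -1.13 (SE 0.40) for Fos, -0.88 (SE 0.30) for Dusp1 and -0.92 (SE 0.39) for Nr4a1, each with an adjusted p of 0.997 by limma.

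Without ammonia these 3 genes had positive differences, and 6 of the 17 had an unadjusted p under 0.05 for the difference between the LPS effects (3.72% of all genes had). Fos was at 6.5, 6.9, 7.7, 6.3 and 6.5 in PCA+LPS arrays, against 6.5, 6.2, 5.7, 6.2 and 6.1 in PCA arrays, a difference of 0.64 (SE 0.38). PCA array 3, which carried brainstem markers, was the lowest PCA array for Fos, Dusp1 (8.7) and Nr4a1 (6.1). Its immediate early list mean was -0.33, and its part in these differences was not tested for these genes. The LPS difference with ammonia minus that without it was -1.77 (SE 0.55) for Fos, -1.20 (SE 0.41) for Dusp1, -1.46 (SE 0.54) for Nr4a1 and -1.23 for Nr4a3, another member of the Nr4a family. Npas4, an activity-dependent transcription factor of neurons, and Junb, a partner of Fos, both named after their values were seen, gave -1.78 (SE 0.85) and -0.51. Npas4 with ammonia differed by -1.57 when the 4 arrays with choroid plexus markers were left out. With limma 0 of 18137 genes passed for this interaction after adjustment, 675 had an unadjusted p under 0.05 (2.19% of all genes positive and 1.53% negative), and its smallest adjusted p was 0.997. Sham arrays of Fos lay at 6.7, 7.2, 8.0, 6.8 and 6.9, within the range of the PCA+NH3 arrays.

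Single arrays moved the immediate early count. The number of lower genes was 6 without PCA+NH3 array 1 or without PCA+NH3+LPS array 2, 1 without PCA+NH3+LPS array 1, and 2 without PCA+NH3 array 2, 4 or 5 or PCA+NH3+LPS array 4. Without the 4 arrays with choroid plexus markers 1 gene was lower, and the differences were -1.05 for Fos, -1.10 for Dusp1 and -0.87 for Nr4a1. The list averaged -0.62, 0.16, -0.22 and -0.33 in PCA+NH3+LPS arrays and -0.38, 0.11, -0.15, 0.40 and 0.45 in PCA+NH3 arrays. The meninges and fibroblast list was lowest in the same PCA+NH3+LPS array 1, at -1.16, and highest in PCA+NH3+LPS array 2 and PCA+NH3 array 5, at 0.79 and 0.77; its part in the result was not tested.

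**Figure D4:**
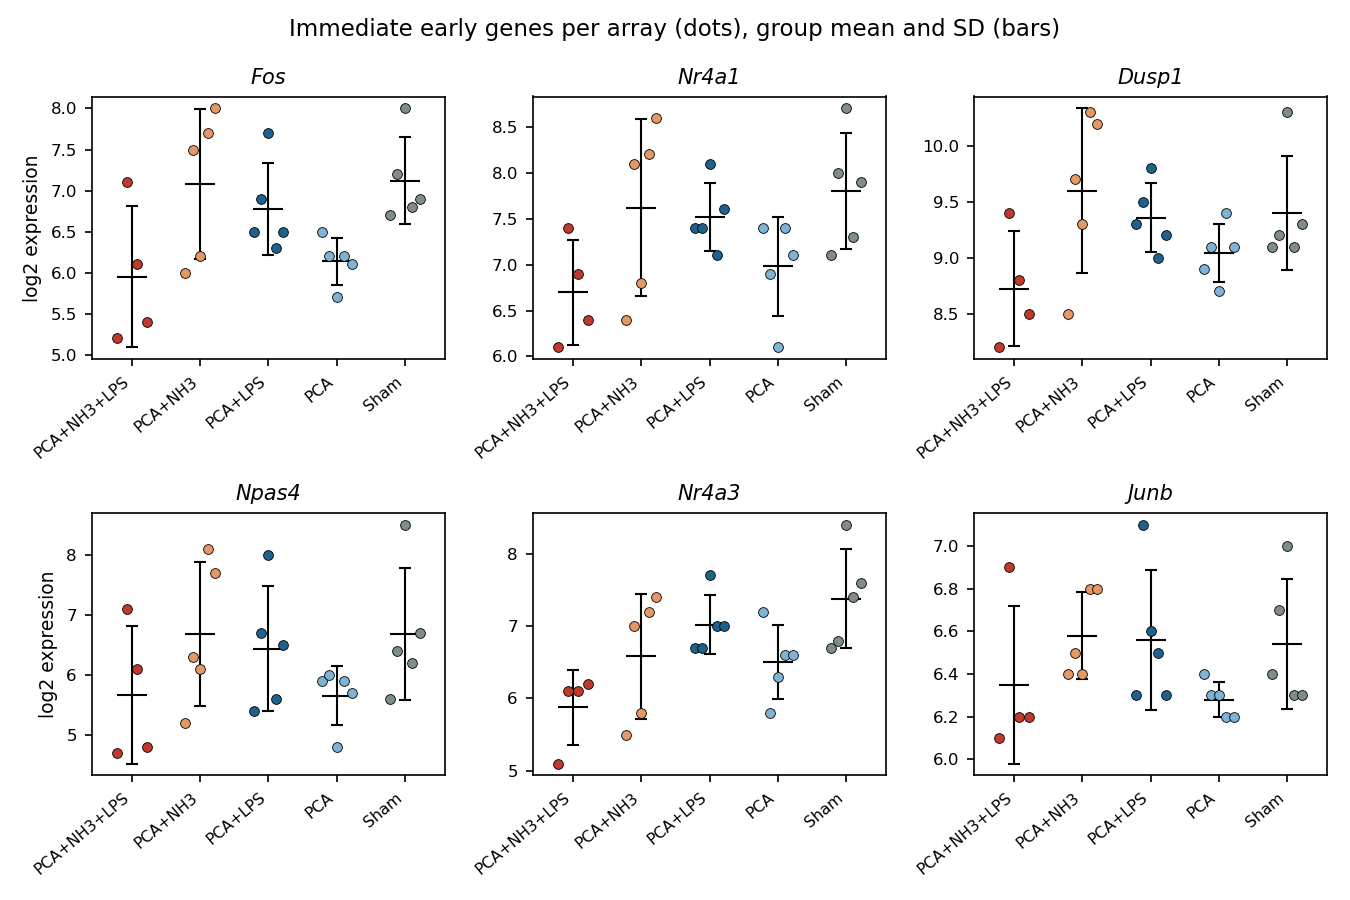
Log2 expression of Fos, Nr4a1, Dusp1, Npas4, Nr4a3 and Junb (vertical axes) in each array of the 5 groups (horizontal axes), with points for arrays and bars for mean ± SD. The PCA+NH3 points of Fos spread from 6.0 to 8.0 and overlap the PCA+NH3+LPS points from 5.2 to 7.1.

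Outside the immune lists, the genes of smallest p were a mixed set. Lcn5, a lipocalin known for binding retinoic acid in the epididymis, was at 5.7, 5.6, 5.5 and 5.7 in PCA+NH3+LPS arrays, against 5.3, 5.0, 5.2, 5.0 and 4.9 in PCA+NH3 arrays. The groups did not overlap, and the difference was 0.55 (SE 0.10, adjusted p = 0.217 by limma), or 1.46-fold. In PCA+LPS against PCA it was 0.14, and the difference between the LPS effects was 0.41 (adjusted p = 0.997 by limma). Nos1ap, an adaptor that ties neuronal nitric oxide synthase to its partners, was at 7.7 in all 4 PCA+NH3+LPS arrays and at 7.5, 7.5, 7.4, 7.5 and 7.5 in PCA+NH3 arrays, with no overlap. Its difference was 0.22 (SE 0.06) with ammonia and -0.12 without it. With values rounded to steps of 0.1, this amounts to 2 or 3 steps. Ephb1, a receptor tyrosine kinase of ephrin signalling, was at 7.6, 7.4, 7.5 and 7.3 in PCA+NH3+LPS arrays, against 7.2, 6.6, 7.2, 6.8 and 7.2 in PCA+NH3 arrays, a difference of 0.45 (SE 0.12) with no overlap, and differed by -0.02 in PCA+LPS against PCA. Tanc1, a scaffold of the postsynaptic density, was higher by 0.41 (SE 0.11). Ptger4, a receptor for prostaglandin E2 that was picked out for its size after its values were seen, differed by 1.05 (SE 0.42) with ammonia and by -0.12 without it, at an adjusted p of 0.997 by limma. The olfactory receptor genes Or11h23b and Or52z1 and the epididymal Adam7 were higher by 0.41, 0.45 and 0.23; Or11h23b was higher by 0.23 without the 4 arrays with choroid plexus markers.

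The genes of smallest p among those lower with LPS also fell under no single list. Cdo1, which oxidises cysteine, was at 9.3, 8.8, 9.3 and 9.2 in PCA+NH3+LPS arrays, against 9.4, 10.2, 9.3, 10.7 and 9.8 in PCA+NH3 arrays, a difference of -0.73 (SE 0.21). Pctp, a phosphatidylcholine transfer protein, was at 5.1, 5.2, 5.2 and 4.5 in PCA+NH3+LPS arrays, against 5.5, 5.4, 5.3, 5.5 and 5.4 in PCA+NH3 arrays, a difference of -0.42 (SE 0.12) with no overlap. Glra2, a glycine receptor subunit, was at 4.2, 4.4, 4.7 and 4.3 in PCA+NH3+LPS arrays, against 5.5, 5.5, 4.4, 5.5 and 5.3 in PCA+NH3 arrays, a difference of -0.84 (SE 0.25). PCA+NH3 array 3 alone fell among the arrays with LPS. Mab21l2, a developmental regulator of eye and midbrain, was at 8.1, 8.0, 8.0 and 7.7 in PCA+NH3+LPS arrays, against 8.2, 9.0, 8.4, 9.2 and 8.7 in PCA+NH3 arrays, a difference of -0.75 (SE 0.22) with no overlap. In PCA+LPS against PCA it differed by 0.44, and the LPS effects differed by -1.19. Ilvbl and Gprasp2, a protein that sorts G protein-coupled receptors to lysosomes, also had groups with no overlap, with differences of -0.29 (SE 0.08) and -0.32 (SE 0.09), the first -0.18 without the 4 arrays with choroid plexus markers. Glb1l2, Cfap210, Esm1, Mybpc1 and H2ac1 were lower by between 0.23 and 0.68.

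The interaction ranked Bach2 first. Bach2, a repressor that holds lymphocytes in an unactivated state and is also made by neurons, was at 5.7, 5.7, 6.0 and 5.6 in PCA+NH3+LPS arrays, against 5.8, 5.3, 5.6, 5.5 and 5.7 in PCA+NH3 arrays, a difference of 0.17 (SE 0.13). In PCA+LPS arrays it was at 5.3, 5.5, 5.3, 5.6 and 5.9, against 6.5, 6.0, 5.8, 6.4 and 6.3 in PCA arrays, a difference of -0.68. PCA+NH3 arrays, without LPS, were as low as the PCA+LPS arrays. The LPS effects differed by 0.85 (SE 0.18, adjusted p = 0.997 by limma). Grm8, a metabotropic glutamate receptor, differed by -0.41 with ammonia and 0.34 without it, and these effects differed by -0.76 (SE 0.20).

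**Figure D5:**
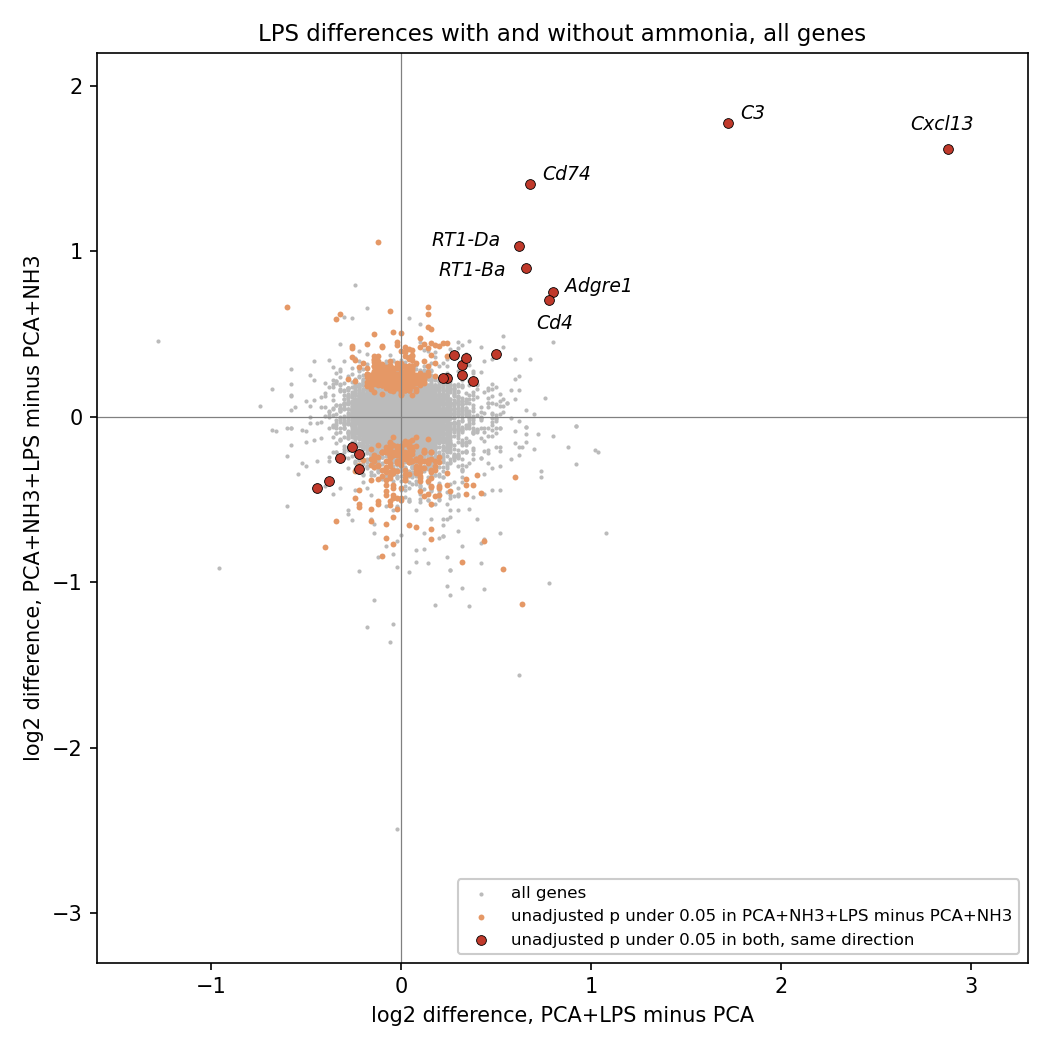
Log2 difference of each of 18137 genes in PCA+NH3+LPS minus PCA+NH3 (vertical axis) against PCA+LPS minus PCA (horizontal axis), with genes of unadjusted p under 0.05 in the first comparison in orange and in both, in the same direction, in red. C3 lies at 1.77 and 1.72, Cxcl13 at 1.62 and 2.88, and most orange points lie away from the diagonal.

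The comparisons with and without ammonia share no arrays, and the overlap of their low p genes was counted. Both came from 1 model, so each gene's p-values in them share 1 estimate of its spread and are not independent. An overlap above the shares of all genes can therefore arise without a shared LPS difference. Of 313 genes higher at an unadjusted p under 0.05 with ammonia, 15 were also higher at that level without it, which is 4.79% of the first list and 4.13% of the 363 in the second, against 2% and 1.73% of all genes that were higher without and with ammonia at that level. These 15 were chosen by that criterion after their values were known. Among them were C3, Adgre1, Cd4, Cd74, Cxcl13, RT1-Ba, RT1-Da, the small GTPase gene Rac2 of blood cells and the C-type lectin gene Clec4b2. The rest were Cbr4, LOC299282, Nkain3, Nxn, Prkg1 and Rad54l. Cbr4 and LOC299282, like C3, had groups with no overlap in both comparisons. Of 212 genes lower with ammonia, 6 were also lower without it (2.83% of these and 1.65% of the 364, against 2.01% and 1.17% of all genes). The 6 were Mx2, Gbp1, Gpc2, RT1-M4, LOC100364812 and Olr990. Over all 313 higher genes, 126 had the same sign and 154 the opposite sign without ammonia, and the same sign share was 40.3%, against 45.8% positive differences over all genes; of the 212 lower genes 44.3% had the same sign, against 45.5% negative differences over all genes. Across all 18137 genes, which are not independent replicates, the differences of the comparisons had a Pearson correlation of -0.03.

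Other lists held few genes past an unadjusted p of 0.05. All 14 choroid plexus and ependyma genes were negative, with a median of -0.92 and 0 at an unadjusted p under 0.05, and PCA+NH3 held 3 of the 4 arrays with such markers. Without those arrays the median was -0.25. Leaving out PCA+NH3+LPS array 3 alone put 11 of the 14 under that p. Of 14 brainstem genes 1, the neuropeptide gene Gal, had an unadjusted p under 0.05, at 6.7, 6.0, 6.5 and 6.2 in PCA+NH3+LPS arrays against 8.0, 7.4, 6.1, 7.0 and 7.2 in PCA+NH3 arrays, a difference of -0.79 and of -0.25 without the 4 arrays with choroid plexus markers. Of 11 glucocorticoid response genes 1, Zbtb16, had such a p, with a difference of -0.48 (SE 0.23), and of -0.97 without those 4 arrays. Cholesterol synthesis genes (16, median 0.09), myelin genes (17, median 0.07), Purkinje cell genes (13, median 0.07), granule cell genes (14, median 0.04), clock genes (13, median -0.09) and genes of ammonia, glutamine and glutamate handling (15, median -0.06) had 0 at an unadjusted p under 0.05 in either direction. Without the 4 arrays with choroid plexus markers 3 clock genes were lower and 3 cholesterol synthesis genes higher at that p, and without PCA+NH3 array 1 alone 3 clock genes were lower. Opalin, a myelin gene, differed by 0.56 (SE 0.27), and Gfap, the astrocyte filament, by -0.17 (SE 0.28) and by 0.22 without the 4 arrays with choroid plexus markers. Of genes followed from earlier work on the series, Per2, a clock repressor, differed by -0.31, Dusp4, a MAP kinase phosphatase, by 0.26, and Lyn, a Src family kinase, by 0.20. Per2 differed by -0.67 and Lyn by 0.02 without the 4 arrays with choroid plexus markers.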

How the data were processed

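Total RNA of rat cerebellum was measured on 24 Affymetrix arrays, after fragmentation and biotin labelling of single-stranded DNA with a WT Plus kit (per the protocols in the labels). The authors deposited log2 expression values made with RMA, which corrects background, normalizes by quantiles and summarises probe sets, per the submitters' processing notes; version and annotation build do not appear there. All values were multiples of 0.1 from 1.5 to 13.5, and the annotated table and the series matrix had 0 differences. Arrays carry no read depth, so their number limits the precision. Of 29016 probe sets, 19338 had 1 symbol, 1521 several and 8157 none. Set against rat RefSeq, 14126 symbols were current, 3388 were updated and 1824 kept as given. The 836 genes with several probe sets were represented by the one of highest mean over all arrays.

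All 24 arrays entered 1 model with a mean per group and no covariates (limma 3.58.1, R 4.3.3, 19 residual and 4.39 prior degrees of freedom). Contrasts were PCA+NH3+LPS minus PCA+NH3, PCA+LPS minus PCA, and the first minus the second. Tests were two-sided, adjusted over 18137 genes by Benjamini-Hochberg at 0.05, with 95% intervals. The 27 gene lists were described by counts and medians, without a test. The alternatives were fits on the compared arrays alone, cyclic loess, a mean level of at least 5, a trended robust prior, array weights, a replicate block, the fit without the 4 arrays with choroid plexus markers, the choroid plexus mean as a covariate, means over probe sets, and leaving out single arrays.

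The comparison, its groups, gene lists and alternatives were chosen with earlier results of these data known. Genes named are those of smallest p, up to 12 in each direction and 6 in the interaction (leaving out provisional, receptor-family and small RNA symbols with the prefixes Snor, Vom, Olr, Mir, AABR, RGD, LOC and Rn), from each list the 4 members at most with the lowest p, and 20 genes of prior interest; some genes under this rule are not described. Other list members, and genes with a low p in both LPS comparisons, were chosen after their values were seen. On simulated arrays with 200 changed of 18137 genes, the PCA+NH3+LPS against PCA+NH3 contrast recovered 67.4% of genes changed by 0.5 and 96.4% of those changed by 1 on the log2 scale, with 5.8% false calls; so many changed genes make the adjusted threshold easier to reach than in the real arrays.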

Additional observations from a re-analysis of the deposited data

Results flagged for a closer look

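Among 190 groups of 4 or 5 arrays checked for an array far from the rest of its group, 15 had one. Chance alone gives about 1 in 20 for independent values that are not rounded. Values here were rounded to 0.1, and Ttr, Kl and the choroid plexus list were flagged in the same array. No excess can therefore be read from the 15. In PCA+NH3+LPS array 1, Adgre1 was at 6.2 (the other 3 arrays at 6.8 to 6.9), Il6 at 3.1 (others 3.4), C7, a terminal complement component, at 4.7 (others 6.2 to 6.5) and Nr4a3 at 5.1 (others 6.1 to 6.2). In PCA+NH3+LPS array 2, Junb was at 6.9 (others 6.1 to 6.2). In PCA+NH3+LPS array 3, the mean of the choroid plexus and ependyma list was 2.688 (others -0.74 to -0.60), with Ttr at 12.5 (others 5.9 to 6.1) and Kl, a hormone coreceptor gene of choroid plexus, at 9.6 (others 5.4 to 5.6); Gbp1 was at 2.8 there (others 2.7). In PCA+NH3+LPS array 4, Pctp was at 4.5 (others 5.1 to 5.2) and Itgam at 5.2 (others 5.9 to 6.0). In PCA+NH3 array 3, Nos1ap was at 7.4 (others 7.5) and Glra2 at 4.4 (others 5.3 to 5.5). In PCA+NH3 array 4, Aif1 was at 5.7 (others 6.1 to 6.2) and Zbtb16 at 7.5 (others 6.1 to 6.3). The Gbp1 and Nos1ap gaps are 1 rounding step of 0.1.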

How the results depend on the processing

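With limma, 0 genes passed in PCA+NH3+LPS against PCA+NH3 and 0 in PCA+LPS against PCA. The exceptions were array weights, with 2 in the first (C3 and Lcn5; 847 against 525 genes at an unadjusted p under 0.05) and 2 in the second (C3 and Bach2; 1095 against 727), the replicate block, with 1 in each (C3), and single arrays, which gave 0 to 2 in each: 2 without PCA+NH3 array 1 (C3 and Lcn5), 2 without PCA array 3 (C3 and Bach2) and 1 without PCA+LPS array 5 (Bach2). The interaction had 0 in every fit, with 1121 genes at an unadjusted p under 0.05 under array weights against 675. The filter on a mean level of at least 5 tests fewer genes and left 302, 427 and 384 at that p in the order of these comparisons. The cause of these moves was not tested. Same-numbered arrays of PCA+NH3+LPS and PCA+NH3 correlated in their deviations at 0.04, -0.06, -0.28 and 0.24, and 1 of 4 correlated best with its own number. This check did not show that the numbers pair the arrays, and it cannot exclude a shared batch. The log2 difference in C3 ran between 1.52 and 2.05 when single arrays were left out.

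Of 68 genes followed, 593 values under settings other than single arrays kept direction and side of the threshold in 584 cases and turned sign in 6. No gene passed in the main fit, so keeping the side of the threshold says little. Many of the 68 were also picked for a low p in these data. Without the 4 arrays with choroid plexus markers, Ccl2 gave -0.87, Il6 -0.05, Gfap 0.22 and Slc6a2 0.017; with the choroid plexus mean as a covariate, Ccl2 gave -0.0033 and Kl 0.10. Among 612 values without a single array, 599 kept both and 11 turned sign, with ranges of -0.025 to 0.175 for Tlr4, -0.10 to 0.38 for Ccl2, -0.033 to 0.10 for Il1b, -0.05 to 0.18 for Il6 and -0.075 to 0.073 for Aif1. A list median was counted as moved when it shifted by at least 1 SD of the list mean within these groups. This was so in 7 of 486 settings. The MHC class II median moved to 0.51 among its 6 genes with a mean level of at least 5 and to 0.28 without the 4 arrays. Lists with a large SD shifted without being counted. The choroid plexus median went from -0.92 to 0.15 with the choroid plexus mean as a covariate. The meninges and fibroblast median ran from -0.34 to 0.36 without single arrays. Groups of 4 and 5 arrays, values rounded to 0.1 and an unstated sampling time limit these comparisons. So do markers of other tissue in 4 of the 9 arrays and in some arrays of the other groups.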

Other observations

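Probe sets with several symbols were outside the gene comparison. The one for RT1-Bb, the rat DQ beta chain, shared with LOC688090, was at 6.0, 6.3, 6.7 and 5.7 in PCA+NH3+LPS arrays, against 5.6, 5.4, 5.8, 5.3 and 6.4 in PCA+NH3 arrays, a difference of 0.48 (SE 0.28). Array 5 of PCA+NH3 was again the highest of its group. The probe set shared by C4-2 and C4b, which encode complement component 4, differed by -0.15 (SE 0.30), and the one shared by C2 and Cfb by -0.09 (SE 0.15). Over all 9678 probe sets outside the gene comparison, 0 passed with limma when adjusted over 29016, and 305 had an unadjusted p under 0.05.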
